A study of Mus musculus with 4 samples.

Results

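The 8 genes described here are caspases (Casp2, Casp6, Casp8 and Casp9) and genes whose protein carries the fold of the inhibitors of apoptosis (Birc2, Birc5, Birc6 and Xiap). They were taken by NCBI gene ID from a table of 17374 genes and 45505 transcripts, in which the 8 genes hold 32 transcripts, 13 of them curated by RefSeq and 19 predicted. The RNA came from mouse oocytes at the germinal vesicle stage, which are arrested before the first meiotic division, collected on postnatal day 16 from unprimed C57/Bl6/DBA2J F1 females. The 2 control libraries were made from cultured oocytes that were not irradiated, and the 2 irradiated libraries from oocytes given 5 Gy of γ-rays from a caesium-137 source and collected 24 h later. Both groups were freed of cumulus cells, held in medium with milrinone, a phosphodiesterase inhibitor that blocks meiotic resumption, and pooled before mRNA isolation with oligo(dT). The comparison asks whether a dose of radiation that the study's methods call non-lethal altered the transcripts of the cell death machinery a day later. The study describes the replicates as independent experiments, but the labels do not tie libraries to animals, so p-values measure the spread between these libraries.

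Caspases are proteases that are made as inactive zymogens and cut other proteins after aspartate once activated. Initiator caspases are activated on platforms: Casp8 at death receptors, Casp9 on the apoptosome built from Apaf1 and cytochrome c, and Casp2 on the PIDDosome. Executioner caspases, to which Casp6 is counted, are activated downstream of initiators and then cleave cellular proteins. Inhibitors of apoptosis carry BIR domains, which fold around a zinc ion, and Xiap blocks caspases directly, whereas survivin, the product of Birc5, works mainly in the chromosomal passenger complex that guides chromosome segregation. Oocytes of small follicles are known to die after DNA damage through TAp63 and BCL2 family proteins upstream of the caspases.

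The protease and zinc-binding residues that place these genes in their families can be read in their coding sequence. The following lines give the codons around the catalytic cysteine of the 4 caspases, with the 5 codons of the motif (glutamine, alanine, cysteine and the next 2 residues) in capitals, in the curated transcript of each gene on GRCm38. The windows lie at chr6:42276758-42279787 (exons 8 and 9 of Casp2), chr3:129910684-129912141 (exons 5 and 6 of Casp6), chr1:58844601-58844639 (exon 8 of Casp8) and chr4:141807235-141811549 (exons 6 and 7 of Casp9), all on the plus strand.
Casp2 NM_007610.2: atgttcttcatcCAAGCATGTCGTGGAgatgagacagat
Casp6 NM_009811.4: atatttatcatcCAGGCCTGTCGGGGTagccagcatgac
Casp8 NM_001080126.1: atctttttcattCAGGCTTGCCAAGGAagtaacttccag
Casp9 NM_015733.5: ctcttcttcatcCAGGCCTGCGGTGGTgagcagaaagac
The 84 bases from the first to the last zinc-binding codon of the single BIR domain of Birc5, at chr11:117849811-117852693 on the plus strand (exons 2 and 3), follow with the codons of the 3 cysteines and the histidine in capitals.
Birc5 NM_009689.2: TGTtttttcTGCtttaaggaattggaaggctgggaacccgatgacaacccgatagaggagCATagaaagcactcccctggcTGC
The same spacing of cysteines and histidine occurred 3 times in the translated Birc2 (612 residues), 3 times in Xiap (496 residues), and once each in Birc5 (140 residues) and Birc6 (4873 residues).

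Before the comparison, the libraries themselves differed. Total estimated counts were 33349466 to 37232818 per library. The replicates of the control group differed by a median of 0.128 on the log2 scale across genes and those of the irradiated group by 0.29, and the scaling factor of irradiated replicate 2 was 1.19 against 0.923 to 0.975 in the others. Oocyte transcripts in that library lay off the others in both directions, with the zona pellucida gene Zp2 lower (1937 TPM against 4115 to 4452) and its partner genes Zp1 (2579 TPM against 989 to 1294) and Zp3 (15620 TPM against 10914 to 11773) higher. All 14 oocyte markers were present, and their summed level was 60000 to 60100 TPM in the control libraries and 51200 to 60500 TPM in the irradiated libraries. Markers of follicular granulosa cells, 10 of 13 listed, summed to 17.8 to 20.2 TPM and 17.6 to 24.5 TPM, those of stroma and theca, 4 of 7 listed, to 0.39 to 0.41 TPM and 0.39 to 0.54 TPM, and those of leukocytes, 3 of 7 listed, to 1.64 to 1.74 TPM and 1.91 to 3.53 TPM. Granulosa markers ran from Cyp19a1 at 8.79 to 10.23 TPM and Nr5a2 at 3.53 to 7.43 TPM down to Inhbb at 0 to 0.01 TPM. Cyp17a1, which defines theca cells, was at 0 in 3 of 4 libraries, but Star had 14 to 19 counts and Dcn 7 to 9 in every library. Itgam, a myeloid integrin, was at 0 in replicate 2 of both groups. Cd68, a macrophage protein, made up most of the leukocyte sum, with 1.69 and 1.58 TPM in the controls and 1.86 and 3.50 TPM after irradiation. The part of these cells in the results below was not tested.

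None of the 8 genes passed the test between irradiated and control oocytes. The values were estimated counts per gene, and 12569 genes were compared by edgeR's quasi-likelihood test, with p-values adjusted by the Benjamini-Hochberg method. A call needed both a log2 fold change beyond 2 in either direction and an adjusted p under 0.05. In that fit 0 of 8 members were called, beside 0.00796% of all genes tested (1 gene), and 0 of 8 had an unadjusted p under 0.05, beside 5.92% of all genes, so the members' count cannot be told from the background. DESeq2 and edgeR's exact test also called 0 of the 8 members. Among the members 4 estimates lay above 0 and 4 below, with a median log2 fold change of -0.07 against 0.01 over all genes. Each member's 95% interval, given with its values below, included 0 and lay inside the log2 limit of 2 in both directions.

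The members spanned more than 3 orders of magnitude in TPM, the authors' unit that divides counts by transcript length and sums to the same total in each library. Birc5 led with 2927 and 2790 TPM in the control libraries and 2655 and 2521 TPM in the irradiated ones, and ranked 53 among all 17374 genes. In the controls its level was 104 times that of Casp8 and 2700 times that of Xiap. It exceeded the summed level of the other 7 members by 69.4 and 62.6 times in the control libraries and 67.4 and 44.8 times in the irradiated ones. Casp8 came second, at a mean over the 4 libraries of 28.0 TPM, followed by Casp6 at 5.96 TPM, Birc6 at 3.90 TPM, Birc2 at 3.81 TPM, Casp2 at 2.10 TPM, Xiap at 1.06 TPM and Casp9 at 0.755 TPM. The ranges over the 4 libraries overlapped for Casp6 and Birc6, for Birc6 and Birc2, and for Xiap and Casp9, and were separate for the other neighbours in this order. Within each library, however, Casp6 exceeded Birc6 and Xiap exceeded Casp9 in 4 of 4, whereas Birc6 exceeded Birc2 in 1 of 4, so only the order of Birc6 and Birc2 varied with the library. Counts per kilobase of the longest listed transcript gave the same order but smaller ratios, with Birc5 at 26.0 times Casp8 and 662 times Xiap over the 4 libraries. For Birc5 that transcript is NM_001012273.1, of effective length 3248 bases, which held 0.112% to 0.184% of the gene's counts. NM_009689.2, which held 99.8% to 99.9%, has an effective length of 782 bases. The smaller ratios thus rest on a length that few Birc5 counts had.

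**Figure D1:**
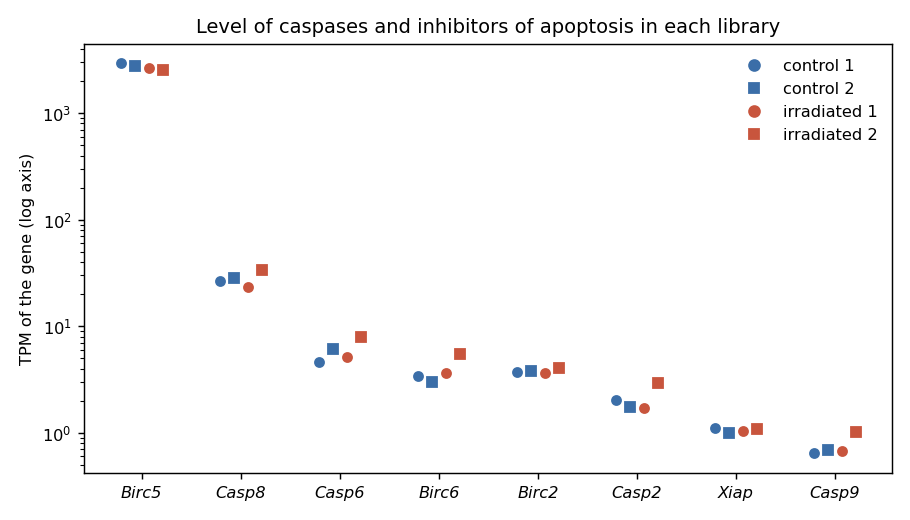
TPM of each gene (vertical log axis), with 1 point per library (blue, control; red, irradiated; circles, replicate 1; squares, replicate 2). Birc5 lies between 2521 and 2927 TPM, Casp8 between 23.45 and 33.8 TPM, and the other 6 genes below 8 TPM, with irradiated replicate 2 the highest point for Casp2, Casp6, Casp8, Casp9, Birc2 and Birc6.

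For the comparison, counts were divided by the size of each library after TMM scaling, which sets the median gene near no change, and are called normalized counts here. Normalized counts are comparable between libraries for a gene but not between genes of different length. In pooled oocytes, fewer cells that carry a transcript and less of it per cell cannot be told apart.

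Among the initiators, Casp8 (NCBI gene 12370, chr1:58795233-58847503, plus strand), the caspase of death receptors, had the most RNA. Its normalized counts were 1614 and 1612 in the controls and 1363 and 1487 after irradiation. Both irradiated libraries lay below both controls, but on TPM the groups overlapped, with 26.6 and 28.19 TPM in the controls and 23.45 and 33.8 TPM after irradiation. The estimate was a log2 fold change of -0.18 ± 0.131 (SE), with a 95% interval of -0.49 to 0.13 and an adjusted p of 0.725 by edgeR's quasi-likelihood test, and it turned to 0.04 on log2(TPM + 0.1). That scale, and library size alone, moved the median of all genes to 0.21 and 0.17, so a change near 0 on them lies below the median gene.

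Casp2 (NCBI gene 12366, chr6:42264902-42282508, plus strand) is the caspase of the PIDDosome, a platform linked to DNA damage and extra centrosomes. Its normalized counts were 189 and 155 in the controls and 154 and 198 after irradiation. The irradiated libraries held both the lowest and the highest value, so the groups overlapped. Its log2 fold change was 0.04 ± 0.209 (SE), with an interval of -0.46 to 0.53 and an adjusted p of 0.954 by edgeR's quasi-likelihood test. Without irradiated replicate 2 the estimate was -0.16 and without irradiated replicate 1 it was 0.19.

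Casp9 (NCBI gene 12371, chr4:141793612-141815978, plus strand), the caspase of the apoptosome, was the scarcest member, with raw counts of 64, 62, 63 and 89. Normalized counts were 65.6 and 67.2 in the controls and 67.0 and 76.6 after irradiation. Irradiated replicate 1 lay between the controls, and only irradiated replicate 2 was above them. Its log2 fold change was 0.12 ± 0.222 (SE), with an interval of -0.41 to 0.64 and an adjusted p of 0.868 by edgeR's quasi-likelihood test.

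Casp6 (NCBI gene 12368, chr3:129901415-129914112, plus strand) is an executioner that cleaves nuclear lamin A. Its normalized counts were 167 and 210.3 in the controls and 179.7 and 207 after irradiation, so both irradiated values lay between the controls. The log2 fold change was 0.04 ± 0.195 (SE), with an interval of -0.43 to 0.50 and an adjusted p of 0.953 by edgeR's quasi-likelihood test. Without control replicate 1 it was -0.13 and without control replicate 2 it was 0.21.

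Birc2 (NCBI gene 11797, chr9:7818226-7837131, minus strand) encodes cIAP1, a ubiquitin ligase of TNF receptor signalling. Its normalized counts were 327 and 319.7 in the controls and 307 and 256 after irradiation. The irradiated libraries were lower without overlap, replicate 2 more so, but the TPM values of 3.74, 3.81, 3.66 and 4.04 overlapped. The log2 fold change was -0.20 ± 0.162 (SE), with an interval of -0.59 to 0.18 and an adjusted p of 0.735 by edgeR's quasi-likelihood test, and it was 0.03 on log2(TPM + 0.1). It was -0.35 without irradiated replicate 1 and -0.07 without irradiated replicate 2. Birc2 has a close paralog in Birc3, and reads common to both could have been split between them in the authors' counting.

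Xiap (NCBI gene 11798, chrX:42059613-42109664, plus strand) encodes an inhibitor that binds Casp9. Its normalized counts were 607 and 513 in the controls and 546 and 419 after irradiation. Irradiated replicate 1 lay between the controls and replicate 2 below both. The log2 fold change was -0.22 ± 0.178 (SE), with an interval of -0.64 to 0.21 and an adjusted p of 0.735 by edgeR's quasi-likelihood test, and it was 0.01 on log2(TPM + 0.1). It was -0.43 without irradiated replicate 1 and -0.03 without irradiated replicate 2. Its level in TPM depends on the transcript length used. Of its counts 97.6% to 97.7% were assigned to the predicted transcript XM_011250977.3, whose effective length is 20435 bases. Divided by that length, the counts came to 0.689 to 0.778 on the scale of FPKM (counts per kilobase and library size). Divided by the full 6542 bases of the curated NM_009688.3 they would come to 2.15 to 2.43, which is 3.12 times as much. That ratio sets an effective length against a full one, and the rank of Xiap at the shorter length was not computed.

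Birc6 (NCBI gene 12211, chr17:74528254-74703356, plus strand) encodes BRUCE, a very large protein that joins a BIR domain with a ubiquitin-conjugating domain. The study singled out Birc6 in these same libraries, so the values below are not independent evidence in either direction. Normalized counts were 1516 and 1229 in the controls and 1522 and 1735 after irradiation. The groups did not overlap, though irradiated replicate 1 and control replicate 1 were nearly equal. The log2 fold change was 0.25 ± 0.158 (SE), with an interval of -0.13 to 0.62 and an adjusted p of 0.714 by edgeR's quasi-likelihood test. It was 0.47 on log2(TPM + 0.1), and with 1 library left out it ran from 0.10 (without control replicate 2) to 0.40 (without control replicate 1).

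Birc5 (NCBI gene 11799, chr11:117849237-117855743, plus strand) encodes survivin. Its normalized counts were 64407 and 58321 in the controls and 56396 and 40575 after irradiation. Both irradiated libraries were below both controls on normalized counts and on TPM, and irradiated replicate 2 was the lowest by a wide gap on normalized counts. The log2 fold change was -0.34 ± 0.272 (SE), with an interval of -0.98 to 0.30 and an adjusted p of 0.735 by edgeR's quasi-likelihood test. It was -0.12 without irradiated replicate 2 and -0.61 without irradiated replicate 1.

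**Figure D2:**
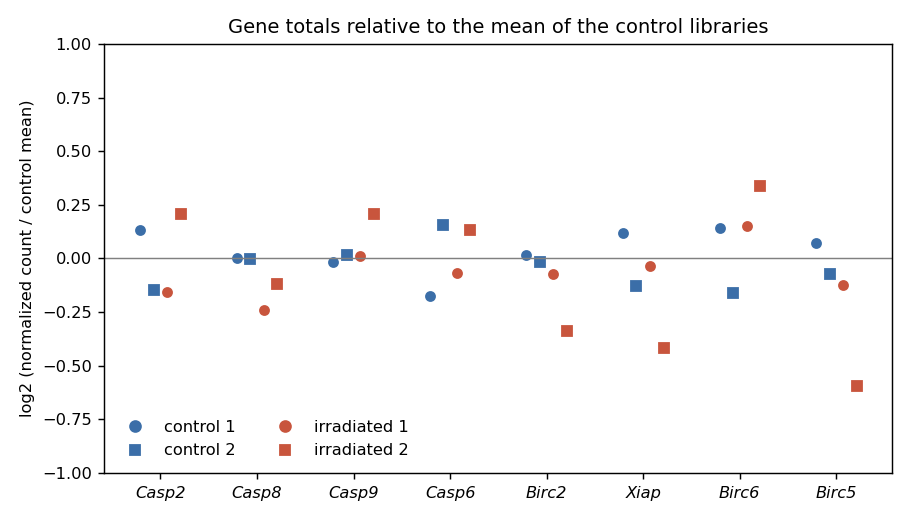
Normalized count of each gene in each library on a log2 scale relative to the mean of the control libraries (blue, control; red, irradiated; circles, replicate 1; squares, replicate 2; the line at 0 is the control mean). Irradiated replicate 2 is the farthest from the control mean for Casp2, Casp9, Birc2, Xiap, Birc6 and Birc5, highest at Birc6 and lowest at Birc5.

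On normalized counts the groups did not overlap for 4 of the 8 members, higher after irradiation for Birc6 and lower for Birc2, Birc5 and Casp8, beside 41.9% of all genes tested, of which 22.1% were higher and 19.8% lower. On TPM the count was 2 of 8, Birc6 higher and Birc5 lower, beside 38.7% of all genes, of which 32.8% were higher and 5.88% lower. The totals lie near the background. By direction, 3 of 8 were lower on normalized counts beside 19.8%, and 1 of 8 was higher on TPM beside 32.8%. These differences were not tested. When irradiated replicate 1 was left out, so that irradiated replicate 2 stood alone against the controls and was taken to vary as they do, adjusted p-values by edgeR's quasi-likelihood test were 4.44e-06 for Birc5, 0.00417 for Birc6 and 0.00217 for Xiap, none with a log2 fold change beyond 2. In that fit 34.3% of 13011 genes had an adjusted p under 0.05. When irradiated replicate 2 was left out, the adjusted p-values of the 8 members in the same test were 0.349 or more.

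**Figure D3:**
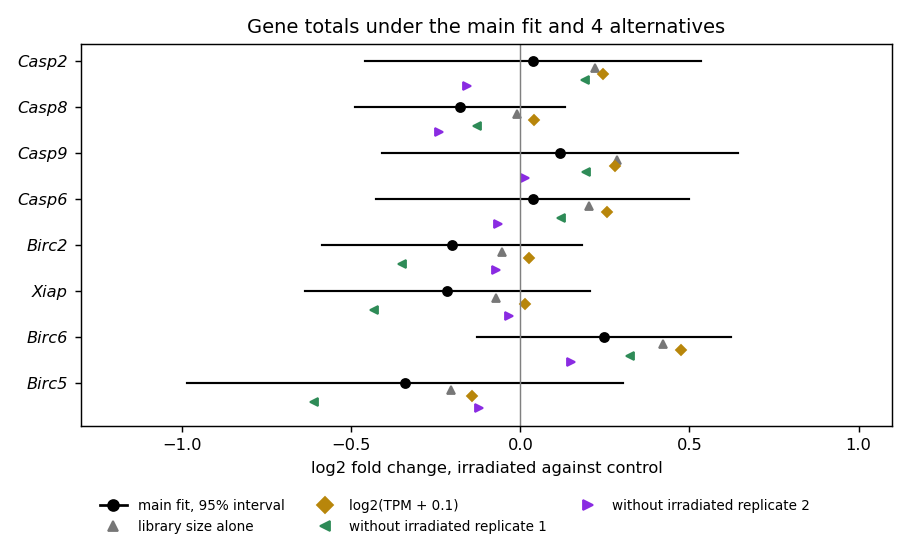
Log2 fold change of each gene, irradiated against control, by edgeR's quasi-likelihood test (black point, with its 95% interval as a line) and under library size alone, log2(TPM + 0.1) and leaving out each irradiated library (coloured symbols). Every black line crosses 0, and the estimates without irradiated replicate 1 and without irradiated replicate 2 fall on opposite sides of 0 for Casp2 and Casp6.

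The transcripts of the members gave no call by edgeR's quasi-likelihood test. Of 32 listed transcripts 15 passed the filter on low counts, 0 were called, as was 0% of 26645 transcripts tested, and 0 had an unadjusted p under 0.05, beside 4.90% of all transcripts. A test of isoform usage could be made in 4 members (Birc2, Birc5, Birc6 and Casp8), and it called 0 by the Simes p of edgeR's diffSpliceDGE, beside 0.253% of 6323 genes. Its F test and limma's diffSplice also called 0, and 0 members had an unadjusted Simes p under 0.05. The split of counts between transcripts is an estimate, and its spread between replicates was wider than that of gene totals, with a common dispersion of 0.473 against 0.0251.

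Birc6 showed how far that split can move. Its 13 listed transcripts, 12 of them predicted, have effective lengths of 15376 to 16193 bases where one could be computed. The leading transcript was XM_030249455.1 in control replicate 1 (645 counts, 43.6% of the gene), NM_007566.3 in control replicate 2 (410 counts, 36.2%) and in irradiated replicate 1 (425 counts, 29.7%), and XM_030249458.1 in irradiated replicate 2 (1083 counts, 53.7%). Thus the control libraries differed from each other in the leading transcript, as the irradiated libraries did. XM_030249455.1 had 645 counts in control replicate 1 and 0 in each of the other 3 libraries. DESeq2 called it lower after irradiation (adjusted p 0.000329), the single member transcript among 248 it called (0.862% of 28757, of which 0.403% were lower), but control replicate 2 held 0 counts like the irradiated libraries, and edgeR's filter on low counts left it out.

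Of the 13 Birc6 transcripts 7 had over 50 counts in 1 library and at most 3 in each other, 5 of them in control replicate 1 and 2 in irradiated replicate 1. The share was 2.57% among the 19794 transcripts of all genes with over 50 counts in at least 1 library. Of the 13, XM_011246257.3 (at most 1 count) and XM_030249457.1 (at most 9 counts) did not reach 50 in any library. Those in control replicate 1 were XM_030249455.1, XM_006523520.3, XM_006523521.3, XM_006523524.3 and XM_030249454.1, at 4.65% to 43.6% of the gene. The pair in irradiated replicate 1 was XM_030249453.1 and XM_030249456.1, at 4.94% and 11.7% of the gene. A single Birc6 transcript, XM_030249458.1, had over 3 counts in all 4 libraries, with 0.317% and 30.0% of the gene in the controls and 25.6% and 53.7% after irradiation. Among 5865 genes with over 1 listed transcript and at least 100 counts, the leading transcript differed between the control libraries in 11.8% and between the irradiated libraries in 12.8%. For the 355 such genes with at least 10 listed transcripts the shares were 37.5% and 38%.

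**Figure D4:**
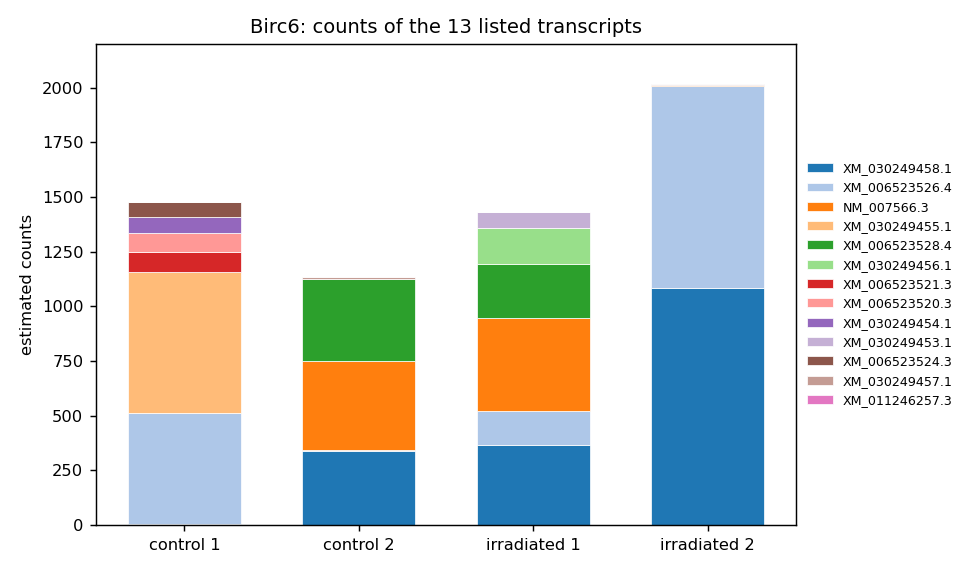
Estimated counts of the 13 listed Birc6 transcripts, stacked for each library (1 bar per library, 1 colour per transcript, axis from 0). The bars differ less in height, from 1134 to 2015 counts, than in the transcripts that fill them.

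Casp8 counts went mainly to the predicted transcript XM_006495634.4, with 95.7% and 93.1% of the gene in the controls and 89.3% and 88.1% after irradiation. The curated NM_001080126.1 took 4.32% and 6.91% in the controls and 10.7% and 11.1% in the irradiated libraries, from 68, 103, 137 and 192 counts. Its share was thus higher in both irradiated libraries, as for 16.9% of 20640 transcripts. The log2 fold change of NM_001080126.1 was 0.80 ± 0.347 (SE, unadjusted p = 0.088, adjusted p = 1.00 by edgeR's quasi-likelihood test), and the isoform usage test of the gene gave an unadjusted p of 0.452, also from edgeR. NM_009812.2 had 14 counts in irradiated replicate 2 and 0 in the others.

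Birc5 counts went almost wholly to NM_009689.2, at 99.8% to 99.9% of the gene in every library. The other listed transcript, NM_001012273.1, had 70, 88, 89 and 86 counts. It keeps the last intron of 2444 bases (chr11:117852781-117855224) and so ends survivin at 121 in place of 140 residues, with the BIR domain whole. The lines below show the end of the third exon in lower case and, in capitals, the first bases of the fourth exon in NM_009689.2 (chr11:117852760-117855248 with the intron between) and of the kept intron in NM_001012273.1 (chr11:117852760-117852804).
Birc5 NM_009689.2: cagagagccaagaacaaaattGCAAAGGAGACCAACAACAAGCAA
Birc5 NM_001012273.1: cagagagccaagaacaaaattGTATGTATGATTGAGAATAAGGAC
The share of the transcript with the intron was 0.112% and 0.163% in the controls and 0.168% and 0.184% in the irradiated libraries. This transcript thus had a higher share in both irradiated libraries, as did 16.9% of 20640 transcripts. Its log2 fold change was 0.03 ± 0.343 (SE) with an adjusted p of 1.00 by edgeR's quasi-likelihood test.

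Casp2 and Casp6 had 1 listed transcript each. In Casp9, NM_001355176.1 led in control replicate 1 with 34 counts and NM_001277932.1 had 29, while NM_015733.5 held all 62, 63 and 89 counts of the other libraries. Birc2 was led by NM_007465.3 in every library, with 71.3% and 89.0% of the gene in the controls and 86.3% and 84.9% after irradiation. Its second transcript, XM_017313111.1, held 24.8% and 3.18% of the gene in the controls, with an SD between replicates of 15.3 percentage points there and 1.33 after irradiation. The third, XM_030244029.1, had 12 and 23 counts in the controls and 5 and 4 after irradiation. Its share was lower in both irradiated libraries, as for 16.9% of 20640 transcripts. Its log2 fold change was -2.05 ± 0.920 (SE, unadjusted p = 0.095 by edgeR's quasi-likelihood test), and it was not called.

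The start regions of Birc5, the most abundant member, and of Casp8, the most abundant caspase, are shown to set these expressed genes beside their promoter letters. The Casp8 window is that of its minor transcript NM_001080126.1, since the start of the leading predicted transcript was not analysed here. RefSeq windows of 300 bases on GRCm38.p6 ran from 250 before a start site to 50 after it. They were searched on both strands for GGGCGG (the GC box), TATAAA (the TATA box) and TAATTG (the NOBOX element of oocyte genes). The search also covered TTTGAA (the CHR element of cell cycle genes) and a decamer, the p53 half-site consensus. Windows were found for all 8 members, 11 in all. Capitals mark the matches. In the Birc5 window (chr11:117848987-117849286, plus strand) these are the p53 half-site decamer and then a GC box on each strand. In the Casp8 window (chr1:58802252-58802551, plus strand) the match is a CHR element on the reverse strand.
Birc5 promoter: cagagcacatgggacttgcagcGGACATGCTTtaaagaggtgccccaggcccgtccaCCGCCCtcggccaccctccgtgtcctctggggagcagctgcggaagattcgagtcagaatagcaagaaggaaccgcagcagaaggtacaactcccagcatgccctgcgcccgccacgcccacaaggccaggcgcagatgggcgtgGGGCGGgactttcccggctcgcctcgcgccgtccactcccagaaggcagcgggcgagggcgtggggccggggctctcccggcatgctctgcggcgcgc
Casp8 promoter: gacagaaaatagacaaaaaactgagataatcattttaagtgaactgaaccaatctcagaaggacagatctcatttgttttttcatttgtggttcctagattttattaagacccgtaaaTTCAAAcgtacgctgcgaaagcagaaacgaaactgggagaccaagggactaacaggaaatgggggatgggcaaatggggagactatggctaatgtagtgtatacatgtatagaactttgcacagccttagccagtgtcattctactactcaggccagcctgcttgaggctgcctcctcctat
A GC box lay in 8 of the 11 windows, which belong to 7 members (Casp8 was the exception), beside 35.9% of 32544 promoters. The p53 half-site decamer was found in 2 windows, Birc2 and Birc5, beside 8.36% of all promoters. The CHR element was in 2 windows (Casp8 and Xiap, 17.8% of all), TATAAA in 1 (Xiap, 13.6%) and TAATTG in 0 (8.01%).

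Other genes of the same pathways did not pass the test either. From 6 lists, 33 of 38 genes found in the table were tested, and 0 were called in either direction by edgeR's quasi-likelihood test, by DESeq2 or by edgeR's exact test. The quasi-likelihood test called 0.00796% of all genes. In that test 1 of the 33 genes, the lamin A gene Lmna, had an unadjusted p under 0.05, beside 5.92% of all genes. The count cannot be told from the background.

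Of 6 other genes with BIR domains 3 were tested, and their median log2 fold change was -0.09. Birc3, the paralog of Birc2 that encodes cIAP2, was far the most abundant, with 108.13 and 111.62 TPM in the controls and 124.75 and 126.77 TPM after irradiation. Its normalized counts overlapped between groups and its log2 fold change was -0.02 ± 0.186 (SE, adjusted p = 0.977 by edgeR's quasi-likelihood test). Naip1, a sensor of bacterial proteins, had 5.55 to 6.12 TPM and Naip5, a flagellin sensor, 3.01 to 3.64 TPM, and reads of these near-identical Naip genes may be split among them.

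Of 12 adaptors of death receptors and the PIDDosome 10 were in the table and 9 tested, 4 with a higher and 5 with a lower estimate and a median of -0.07. Cflar, which encodes the Casp8 relative cFLIP that lacks protease activity, led with 67.11 and 61.29 TPM in the controls and 66.18 and 64.54 TPM after irradiation. Its level thus lay above that of Casp8 (23.45 to 33.8 TPM) in every library. Cradd, the adaptor RAIDD that binds Casp2, had 18.05 to 22.85 TPM, while its PIDDosome partner Pidd1 had 0.03 to 0.09 TPM. Fadd, the adaptor of Casp8, had 6.42 and 7.08 TPM in the controls and 8.12 and 11.51 TPM after irradiation, with a log2 fold change of 0.30 ± 0.132 (SE, adjusted p = 0.708 by edgeR's quasi-likelihood test).

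Of 5 genes of the apoptosome and mitochondrial release all were tested, 3 higher and 2 lower in estimate, with a median of 0.04. Cycs, which encodes cytochrome c, had 197.66 and 206.72 TPM in the controls and 179.32 and 223.95 TPM after irradiation. Endog, a mitochondrial endonuclease, had 12.92 to 14.54 TPM in the controls and 16.12 and 22.97 TPM after irradiation, and Aifm1, a mitochondrial flavoprotein, 13.96 to 14.76 TPM in all libraries. Apaf1, the scaffold of the apoptosome, had 0.36 to 0.60 TPM, close to the 0.64 to 1.02 TPM of its partner Casp9.

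Of 4 antagonists of the inhibitors 3 were tested, 1 higher and 2 lower in estimate, with a median of -0.09. Xaf1, a binding partner of Xiap, had 59.35 to 63.86 TPM and Diablo, the mitochondrial protein Smac that displaces caspases from Xiap, 31.55 to 38.68 TPM. Htra2, a mitochondrial protease, had 11.57 and 12.84 TPM in the controls and 9.43 and 25.99 TPM after irradiation, so the irradiated libraries lay on either side of the controls. On the TPM scale each of these 3 exceeded Xiap, at 0.99 to 1.12 TPM, in every library.

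All 9 caspase substrates were tested, 6 with a higher and 3 with a lower estimate and a median of 0.43. The higher estimates include the scarce Dffa, Dffb, Bid and Lmnb1, with 5 to 39 counts per library. Lmna, whose product Casp6 cleaves, had 6.41 and 7.34 TPM in the controls and 8.69 and 12.32 TPM after irradiation. It was thus higher without overlap on TPM, as were 32.8% of all genes tested. Its log2 fold change was 0.44 ± 0.150 (SE), with an unadjusted p of 0.0216 and an adjusted p of 0.708 by edgeR's quasi-likelihood test. Rock1, a kinase that drives membrane blebbing once cleaved, had 48.75 to 54.53 TPM. Parp1, a DNA break sensor cut by caspases, had 3.03 to 4.45 TPM. Both overlapped between groups on TPM. The normalized counts of Rock1 were lower without overlap, at 8234 and 8638 in the controls and 7989 and 6364 after irradiation. On that scale 5 of the 9 substrates were higher and 2 lower without overlap, beside 22.1% and 19.8% of all genes tested. The list as a set was not tested.

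The partners of Birc5 in the chromosomal passenger complex were all tested, 3 with a higher and 1 with a lower estimate and a median of 0.15. Aurkc, the kinase of the complex in meiosis, had 375.27 and 347.15 TPM in the controls and 360.31 and 464.09 TPM after irradiation. Cdca8, the borealin subunit that binds survivin, had 160.17 and 162.41 TPM in the controls and 181.72 and 277.12 TPM after irradiation, with a log2 fold change of 0.26 ± 0.164 (SE, adjusted p = 0.714 by edgeR's quasi-likelihood test). Incenp, the scaffold of the complex, had 6.52 to 9.07 TPM. Birc5, at 2521 to 2927 TPM, was more abundant than each of these partners in every library.

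**Figure D5:**
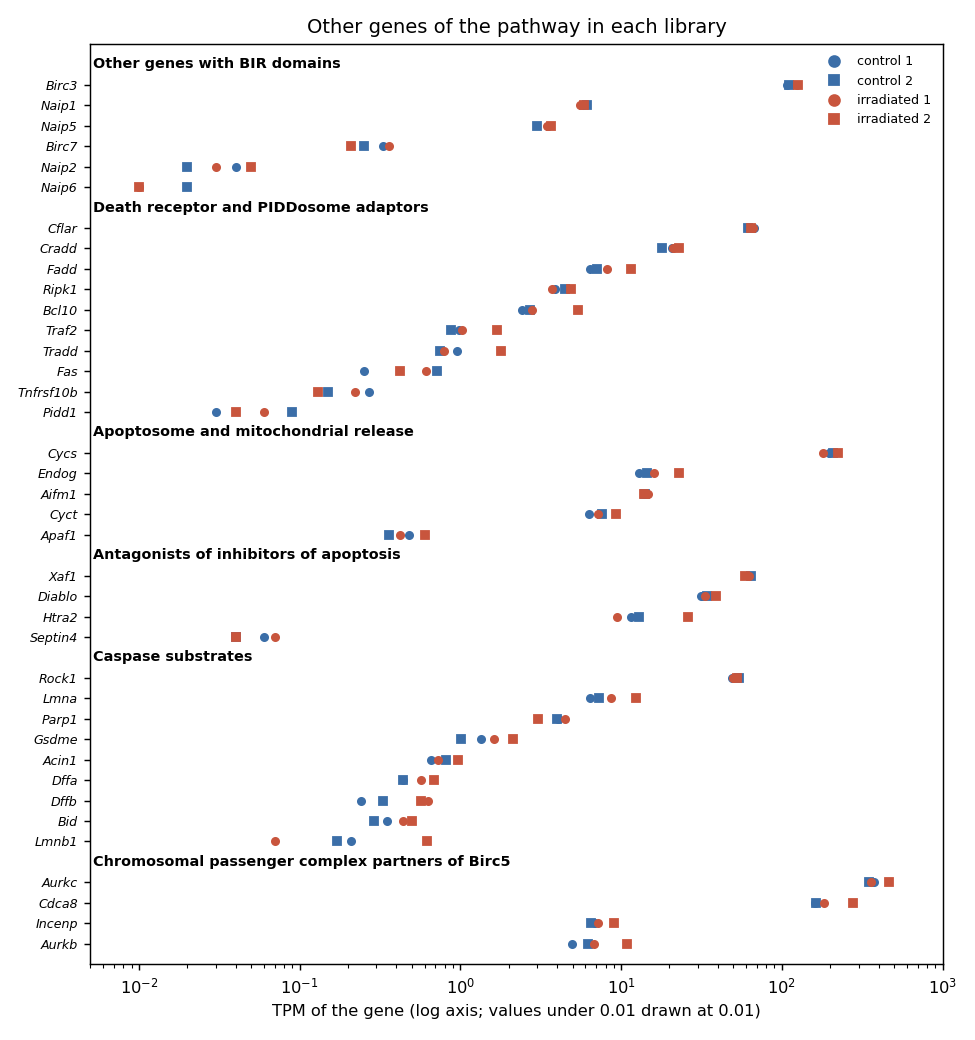
TPM of the other genes of the pathway on a log axis, with 1 row per gene grouped by list and 1 point per library (blue, control; red, irradiated; circles, replicate 1; squares, replicate 2). Aurkc, Cycs, Cdca8 and Birc3 lie above 100 TPM in every library, and Apaf1 at 0.36 to 0.60 TPM.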

How the data were processed

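Paired reads of 100 bases were, per the study's methods, aligned with Bowtie2 to GRCm38. The submitters' processing notes also name HISAT2, RSEM and mm10, and versions and the annotation release are not given in the sources used here. The authors deposited 1 table with estimated counts, TPM and FPKM for each RefSeq transcript and library. Its columns of means were not used. Here estimated counts were summed per gene and rounded, filtered with filterByExpr (minimum count 10) and tested with edgeR 4.0.16 (quasi-likelihood, TMM, no replicate block) in R 4.3.3, and isoform usage with its diffSpliceDGE. DESeq2 1.42.0 and limma 3.58.1 gave alternatives. Deposited TPM gave levels and, on log2(TPM + 0.1), an alternative. Effective lengths came from deposited counts and FPKM. A count of at most 3 was taken as the floor, for counting error only. Symbols were matched for 17323 of 17374 gene IDs, and exons came from GENCODE M21. Members and gene lists were chosen with earlier results of these data known. Named were all members, their leading, DESeq2-called and single-library transcripts, and up to 3 genes a list by TPM or by p. Others were added after their values were seen (Apaf1, Pidd1, Birc2 and Casp9 minor transcripts, and single cell type markers). One gene list is not reported here. The labels' replicate numbers were not shown to pair the samples.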

Additional observations from a re-analysis of the deposited data

How the results depend on the processing

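The alternatives called 0 of the 8 gene totals in every fit run, and leaving out 1 library at a time called 0 member transcripts. Across the whole table, gene calls were 1 in the reported fit, 4 by DESeq2, 10 by edgeR's exact test, 3 without a filter on low counts, 0 by limma-voom, by library size alone and on each log2 TPM scale, and 21, 20, 84 and 16 without control replicate 1, control replicate 2, irradiated replicate 1 and irradiated replicate 2. Transcript calls were 0 by the quasi-likelihood test, 248 by DESeq2 and 247 by the exact test, and DESeq2 called 1 member transcript. Isoform usage calls were 16 as reported, 58 by the F test, 0 by limma diffSplice, 8 without a filter and 1 to 29 when 1 library was left out, with 0 members in each. Members with groups that did not overlap were 4 on normalized counts, 3 with RLE size factors, 2 by library size alone and 2 on TPM. Among all genes tested the share was 41.9% on normalized counts and 38.7% on TPM. It was not computed with RLE size factors or by library size alone, so the change in the members' count was not compared with the background there. The estimates (log2) that turned sign were, on log2(TPM + 0.1) with or without a filter and log2(TPM + 1), Casp8 (0.0399 and 0.0394), Birc2 (0.026 and 0.0214) and Xiap (0.0146 and 0.0077). Leaving out 1 library, Casp2 ranged from -0.16 to 0.19 and Casp6 from -0.13 to 0.21, and of the transcripts NM_007465.3 from -0.24 to 0.064, XM_017313111.1 from -1.14 to 1.89, NM_001012273.1 from -0.17 to 0.25, NM_007566.3 from -5.94 to 10.86, XM_006523526.4 from -0.67 to 8.65, XM_006523528.4 from -10.68 to 10.07, NM_007610.2 from -0.15 to 0.23 and NM_009811.4 from -0.11 to 0.23. NM_007465.3 came to 0.0347 and NM_007566.3 to -0.016 by library size alone, and XM_017313111.1 to 0.28 by limma-voom. The cause was not tested.

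The replicate numbers, added as a block, gave 7 gene calls against 1, 3 isoform usage calls against 16 and 0 calls among the members, and turned XM_017313111.1 to 0.34. Deviations of same-numbered libraries from their group means correlated at r = 0.078 across 12569 genes, which are not independent replicates, so the numbers were not shown to pair the samples.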
